A study of Mus musculus with 4 samples.

Results

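The 8 genes described here encode the receptor chains through which blood cell precursors sense their growth factors: Kit, Flt3, Csf1r, Csf2ra, Csf2rb, Csf2rb2, Csf3r and Il7r. They were taken by symbol from the rows of the deposited matrices, and all 8 of the 8 named symbols were found among 31053 genes. Kit, Flt3 and Csf1r are receptor tyrosine kinases, which bind stem cell factor, FLT3 ligand, and macrophage colony-stimulating factor (M-CSF) or IL-34, respectively. Csf3r binds granulocyte colony-stimulating factor (G-CSF) and Il7r binds IL-7. Csf2ra is the subunit that binds granulocyte-macrophage colony-stimulating factor (GM-CSF), Csf2rb is the signalling chain shared by the receptors for GM-CSF, IL-3 and IL-5, and Csf2rb2 is a related chain of the mouse IL-3 receptor. In marrow, Kit and Flt3 are best known from stem and progenitor cells, Csf1r from monocytes, macrophages and osteoclast precursors, Csf3r from neutrophils, and Il7r from early B cells and T cells. The kinases phosphorylate themselves when a ligand joins 2 chains, and the other chains have no kinase activity and signal through bound Janus kinases and STAT proteins.

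The cells were bone marrow mononuclear cells of C57BL/6 mice. The paper's protocols flush such cells from femur and tibia and collect them over a density gradient. For osteoclast cultures the paper kept the marrow overnight in M-CSF before the gradient. Its sequencing methods do not say whether that step was used here. The mice either lacked TLR9 (TLR9-/-), a sensor of unmethylated DNA, or were wild type (WT), and the labels name no treatment for either group. The allele is disrupted in all tissues of the TLR9-/- mice, and the 2 genotypes were bred in separate cages. The age and sex of these mice are not stated. Each of the 4 libraries, named TLR9-/- 1, TLR9-/- 2, WT 1 and WT 2, came from 1 mouse, and the 2 experiments of the study each used 1 mouse per genotype. The labels do not say whether the library number marks the experiment. RNA was counted by unique molecular identifiers (UMIs), which mark single captured molecules, from the 5′ end of transcripts. Of 40545 cell barcodes, 39167 passed the filters, with between 31210188 and 63958243 UMIs and a median of 1759 to 3618 UMIs per cell in a library. Both TLR9-/- libraries were deeper than both WT libraries, with medians of 2545 and 3618 against 1759 and 2287 UMIs per cell. Between 118 and 203 barcodes were shared by a pair of libraries, and of those kept between 2.46% and 6.72% fell in the same cluster in both. Tlr9 itself had 41 and 48 UMIs in TLR9-/- 1 and 2, against 120 and 97 in WT 1 and 2.

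Cells were grouped by similarity without using the 8 receptor genes or the genes of their pathway lists, and each cluster was named by the class whose marker genes had the highest mean excess there over the other clusters. A class name below therefore means cells resembling that class, from haematopoietic stem cells to mature cells. The cluster named haematopoietic stem cells (435 cells) was led by Cd34 and Hlf. The paper marked stem cells by low CD34, and multipotent progenitors by CD34 with moderate Hlf, so this class may hold both. Of 69 clusters, 46 could be named, which gave 27 classes. In 2 of them the leading genes go less clearly with the name. The 1 cluster of cycling B-cell precursors (2894 cells) had 0 of its own markers and 1 of pro-B cells among its top 10 genes, and the larger of the 2 clusters of globin-rich erythroid cells (2546 cells) had 1 of its own and 2 of erythroid progenitors. The 1 cluster of lymphoid-primed progenitors (199 cells) had 2 of its own and 2 of pro-B cells, with Dntt on both lists. Its mean marker excess was 1.94, beside 1.14 for pro-B cells. Of the 27 classes, 26 are described, those with 10 or more cells in each library. The plasma cells, with 9 to 37 cells per library, are not. The 3266 cells of the other clusters, 8.34% of all, were left unnamed. The smallest classes were the nonclassical monocytes (16 to 46 cells per library), the mesenchymal cells (13 to 17) and the macrophages (27 to 44). The level of a gene in a class is given in CPM, its UMIs in 1 library divided by all UMIs of that class in the library and brought to a common total (with the TMM scaling of edgeR). Over the 26 classes, between 2061 UMIs (Csf2rb2) and 14264 UMIs (Csf2ra) were counted for a gene. These 2 totals, like all levels, are compared for 1 gene between classes and not between genes. A level is a share of the UMIs of a class, and classes differ in UMIs per cell. A higher CPM in a class therefore need not mean more transcripts per cell.

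Promoter sequences of 4 of the receptors are shown here for reference. Each window runs from 250 bases before to 50 bases after the RefSeq transcription start on GRCm38.p6, 5′ to 3′ on the strand of the gene. The windows are chr5:75574737-75575036 on the plus strand for Kit, chr4:126024409-126024708 on the plus strand for Csf3r, chr15:9529827-9530126 on the minus strand for Il7r and chr15:78305672-78305971 on the minus strand for Csf2rb2. Capitals mark a match to 1 of 6 short motifs on either strand.
Kit: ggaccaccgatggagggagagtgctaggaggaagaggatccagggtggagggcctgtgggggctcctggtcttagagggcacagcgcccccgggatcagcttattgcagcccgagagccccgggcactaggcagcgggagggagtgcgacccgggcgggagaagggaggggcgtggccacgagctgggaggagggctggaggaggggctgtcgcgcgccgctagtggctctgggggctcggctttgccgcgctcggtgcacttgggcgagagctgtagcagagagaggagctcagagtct
Csf3r: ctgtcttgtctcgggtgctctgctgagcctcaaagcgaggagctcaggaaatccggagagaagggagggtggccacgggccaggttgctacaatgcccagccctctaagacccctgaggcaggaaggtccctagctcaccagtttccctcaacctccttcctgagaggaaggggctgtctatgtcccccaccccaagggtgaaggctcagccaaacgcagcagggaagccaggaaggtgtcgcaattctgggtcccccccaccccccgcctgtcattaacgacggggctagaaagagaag
Il7r: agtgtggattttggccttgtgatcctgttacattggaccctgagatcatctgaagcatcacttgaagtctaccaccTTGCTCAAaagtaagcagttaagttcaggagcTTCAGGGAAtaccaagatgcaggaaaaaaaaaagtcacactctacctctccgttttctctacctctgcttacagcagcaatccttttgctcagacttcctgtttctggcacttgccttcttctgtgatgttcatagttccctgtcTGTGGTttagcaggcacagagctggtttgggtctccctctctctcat
Csf2rb2: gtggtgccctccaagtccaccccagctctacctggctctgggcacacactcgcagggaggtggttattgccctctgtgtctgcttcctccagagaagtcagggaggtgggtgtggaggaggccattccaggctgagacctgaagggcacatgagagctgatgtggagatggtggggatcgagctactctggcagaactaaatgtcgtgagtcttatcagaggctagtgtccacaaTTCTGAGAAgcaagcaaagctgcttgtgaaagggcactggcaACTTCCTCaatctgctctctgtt
The motifs searched were GAGGAAGT for PU.1, AGATAA for the GATA factors, TGTGGT for RUNX, TTNNGCAA for C/EBP, TTCNNNGAA for STAT and AACNGTC for MYB. The Il7r window held a C/EBP match, which begins 174 bases before the start and lies on the opposite strand, a STAT match and a RUNX match. This whole window lies within the Il7r gene as annotated at chr15:9505788-9530176, whose start is upstream of the RefSeq start. Of 32851 windows of this length, 10.8% held the C/EBP letters, 8.3% the STAT letters and 16.8% the RUNX letters. The Csf2rb2 window held a STAT match, and a PU.1 match on the opposite strand, whose letters occurred in 3.2% of all windows. None of the 6 motifs matched in the windows of Kit, Csf3r, Flt3 and Csf2ra. None of the printed matches overlap. A match describes letters only, and binding was not measured.

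Kit, the stem cell factor receptor (ENSMUSG00000005672, chr5:75574916-75656722 of GRCm38), had its highest mean in stem cells and was lower from there to immature neutrophils along the granulocyte path. In haematopoietic stem cells it stood at 129 CPM in TLR9-/- 1, 132 in TLR9-/- 2, 192 in WT 1 and 159 in WT 2, a mean of 153 ± 29.2 (SD, n = 4 libraries). In megakaryocyte progenitors, the precursors of platelets, it stood at 77.2 and 89.2 CPM in TLR9-/- against 156 and 174 CPM in WT. The ranges of these 2 classes over the libraries overlapped, so their order is open. Erythroid progenitors followed with 57.2 ± 6.65 CPM and granulocyte-monocyte progenitors with 55.5 ± 7.96 CPM, and these did not differ beyond their spread. Within each library, Kit in stem cells was 2.50 to 3.13 times its level in granulocyte-monocyte progenitors. Stem cells held 144, 139, 49 and 79 Kit UMIs in 172, 111, 61 and 91 cells, in the library order above. Granulocyte-monocyte progenitors held 425, 659, 135 and 212 in 610, 574, 197 and 212 cells. This ratio therefore describes CPM and does not carry over to UMIs per cell. The progenitors in turn had 1.57 to 1.98 times the level of granulocyte precursors, in which Kit averaged 32.3 ± 7.23 CPM. Both steps went the same way in 4 of 4 libraries. In the next class, cycling immature neutrophils, Kit averaged 13.3 CPM, in immature neutrophils 4.18 CPM (28 UMIs in all) and in mature neutrophils 5.85 CPM (10 UMIs), so the last step showed no further fall. Monocyte precursors had 14 Kit UMIs in all 4 libraries together, monocytes 1 and mature B cells 0. From erythroid progenitors to globin-rich erythroid cells, which have filled with haemoglobin, Kit was lower by 9.90 to 52.8 times. That ratio rests on as few as 3 UMIs in the globin-rich cells of 1 library. Basophils, a granulocyte type related to mast cells, had 17.2 ± 7.42 CPM.

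Flt3 (ENSMUSG00000042817, chr5:147330741-147400489), whose ligand drives early lymphoid and dendritic cell growth, had its highest levels among the named classes in lymphoid-primed progenitors. There it stood at 264 and 292 CPM in TLR9-/- against 222 and 386 CPM in WT, a mean of 291 ± 69.6 (SD, n = 4). That range overlapped the range of plasmacytoid dendritic cells. In every library it was above haematopoietic stem cells, by 1.92 to 3.34 times. Pro-B cells, the first cells of the B lineage measured here, had 4.54 CPM, and the lymphoid-primed progenitors exceeded them by 49.0 to 129 times. Both kinds of dendritic cells had Flt3, with 171 ± 42.1 CPM in plasmacytoid dendritic cells, which make type I interferon, and 148 ± 52.0 CPM in conventional dendritic cells, which present antigen. Stem cells had 121 ± 55.2 CPM. The ranges of these 3 classes overlapped each other. Monocytes had 33.2 ± 4.03 CPM, 2.11 to 2.31 times the level of cycling monocytes. They held 56, 66, 23 and 30 Flt3 UMIs in 548, 595, 318 and 278 cells (TLR9-/- 1, TLR9-/- 2, WT 1, WT 2). Cycling monocytes held 72, 62, 23 and 28 in 628, 476, 277 and 238 cells. Per cell, monocytes were thus below cycling monocytes for Flt3 in every library. Granulocyte-monocyte progenitors had only 4.06 CPM, and stem cells exceeded them by 15.4 to 84.0 times. Cells left unnamed held 26.8% to 37.6% of the Flt3 UMIs of a library, and lymphoid-primed progenitors 7.95% to 10.6%.

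**Figure D1:**
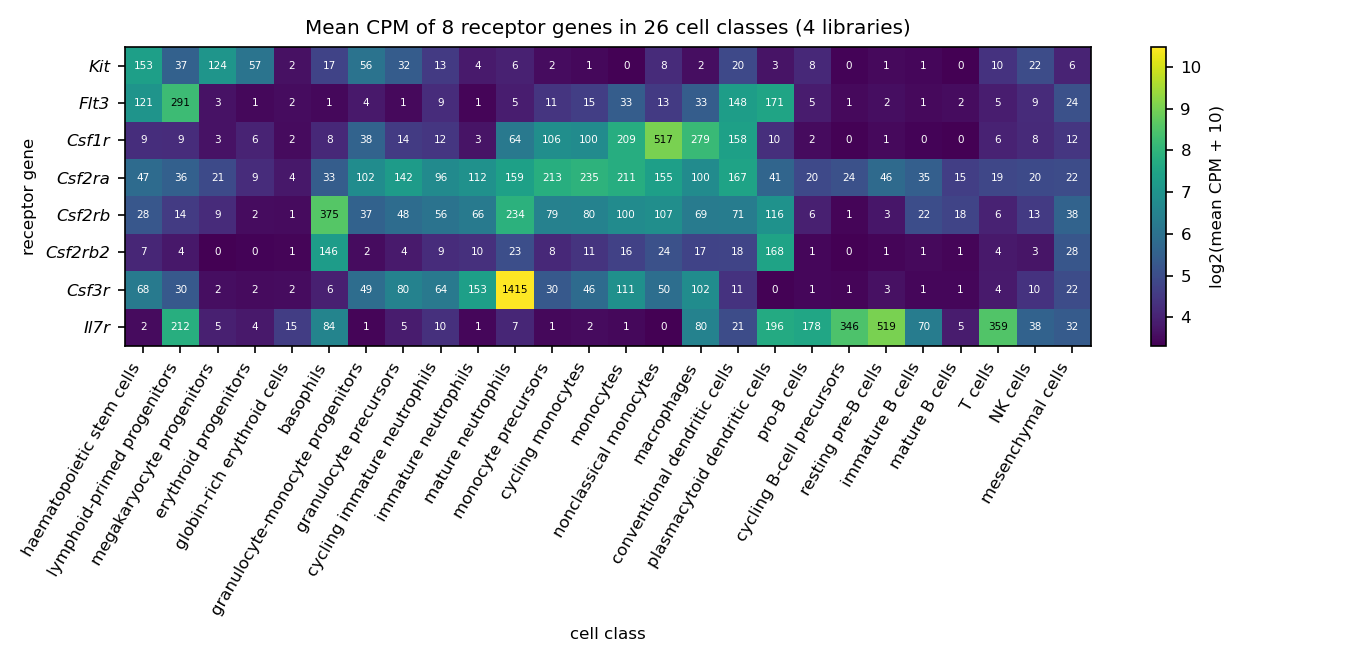
Heat map of the mean CPM over 4 libraries of the 8 receptor genes (rows) in 26 cell classes (columns), with each mean printed in its cell and the colour on the scale log2(CPM + 10). Csf3r stands out in mature neutrophils at 1415 CPM, Kit in stem cells at 153 CPM and Il7r in resting pre-B cells at 519 CPM; levels are to be read along a row.

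Csf1r (ENSMUSG00000024621, chr18:61100598-61132149), the M-CSF receptor that marks osteoclast precursors among monocytes, was higher in CPM in the more mature monocyte classes. Granulocyte-monocyte progenitors had 38.5 ± 4.43 CPM (SD, n = 4), monocyte precursors 106 ± 18.3, cycling monocytes 100 ± 4.60 and monocytes 209 ± 18.6. Nonclassical monocytes, the patrolling form, stood at 477, 678, 488 and 424 CPM in TLR9-/- 1, TLR9-/- 2, WT 1 and WT 2, and every library lay above all macrophage libraries. Macrophages had 279 ± 49.9 CPM, a range that met that of monocytes. Within each library, nonclassical monocytes had 1.84 to 3.27 times the level of monocytes. Monocytes had 1.89 to 2.23 times the level of cycling monocytes, and cycling monocytes 2.13 to 2.98 times that of granulocyte-monocyte progenitors. Cycling monocytes held 451, 452, 157 and 174 Csf1r UMIs in 628, 476, 277 and 238 cells, in the library order above. Monocytes held 306, 453, 163 and 180 in 548, 595, 318 and 278 cells. Per cell, monocytes were thus below cycling monocytes in every library. The nonclassical values rest on 85 UMIs in all. Conventional dendritic cells had between 108 and 122 CPM in 3 libraries and 283 CPM in TLR9-/- 2. Outside this path, mature neutrophils had 64.4 ± 13.6 CPM, 13.8 to 32.9 times their immature form, on as few as 2 UMIs in the latter. Erythroid progenitors had 52 Csf1r UMIs, nearly all in WT 1: that library stood at 23.2 CPM and the other 3 at or below 1.19 CPM.

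Csf2ra (ENSMUSG00000059326, chr19:61223957-61228429), the GM-CSF binding subunit, was spread over all myeloid classes. Its highest mean, 235 ± 32.0 CPM (SD, n = 4), was in cycling monocytes, followed by monocyte precursors with 213 ± 50.8 CPM and monocytes with 211 ± 40.3 CPM. Their ranges overlapped, so no order is given among these 3 classes. Conventional dendritic cells had 167 ± 34.3 CPM, mature neutrophils 159 ± 39.3 and granulocyte precursors 142 ± 17.3. In every library, cycling monocytes had 2.21 to 2.44 times the level of granulocyte-monocyte progenitors, which had 102 ± 17.1 CPM. Levels in the B lineage lay between 15 CPM in mature B cells and 46.0 CPM in resting pre-B cells. Erythroid progenitors and globin-rich erythroid cells had the lowest means, 8.69 and 3.77 CPM.

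The shared chain Csf2rb (ENSMUSG00000071713, chr15:78325752-78353847) was highest in basophils, which respond to IL-3, and in mature neutrophils. Basophils stood at 278 and 420 CPM in TLR9-/- against 334 and 469 CPM in WT, a mean of 375 ± 85.3 (SD, n = 4). Mature neutrophils had 234 ± 62.1 CPM, and the ranges of these classes overlapped. Mature neutrophils had 3.26 to 3.75 times the level of immature neutrophils in every library. Plasmacytoid dendritic cells followed with 116 ± 26.5 CPM and monocytes with 100 ± 26.7 CPM. In basophils Csf2rb was 8.55 to 11.8 times its level in granulocyte-monocyte progenitors.

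Csf2rb2 (ENSMUSG00000071714, chr15:78282507-78305721), the IL-3 receptor chain found in mice, had its highest levels in a pair of the named classes. Of its UMIs in a library, plasmacytoid dendritic cells held 34.8% to 40.4% and basophils 12.3% to 21.2%. Plasmacytoid dendritic cells stood at 159, 148, 196 and 168 CPM in TLR9-/- 1, TLR9-/- 2, WT 1 and WT 2. Basophils stood at 118, 136, 142 and 188 CPM. No other named class exceeded a mean of 27.9 CPM, but cells left unnamed held 12.9% to 31.8% of the Csf2rb2 UMIs of a library. Among them, a cluster led by C1qc, Vcam1 and Klk1 had a mean of 148 CPM and one with Cd7 and Clec9a among its leading genes 101 CPM. Basophils had 4.01 to 15.4 times the level of mature neutrophils, with as few as 1 UMI in the latter. The IL-3 binding subunit Il3ra had its highest level in basophils too, at 220 ± 32.6 CPM (SD, n = 4). Among the classes with enough of its UMIs to be ranked, the IL-5 binding subunit Il5ra had its highest mean, 17.7 CPM, in mature B cells. Csf2rb and Csf2rb2 are neighbours on chromosome 15, with 20030 bases between them, and close in sequence. Of all stretches of 90 bases in a Csf2rb2 transcript, 8.47% also occur in Csf2rb, and for stretches of 50 bases it is 19.0%. Near the 5′ end, among the first 500 starts, it is 11.6% and 26.2%. Reads within such stretches could be assigned to neither or to the wrong gene, so the counts of both are uncertain to that extent.

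Csf3r (ENSMUSG00000028859, chr4:126024550-126044440), the G-CSF receptor, was set apart by mature neutrophils. They stood at 1696 and 1204 CPM in TLR9-/- against 1000 and 1759 CPM in WT, a mean of 1415 ± 372 (SD, n = 4). Immature neutrophils had 153 ± 16.1 CPM, and mature cells had 7.29 to 11.6 times that level within a library. Earlier neutrophil stages were lower still, with 79.7 ± 11.4 CPM in granulocyte precursors, 64.3 ± 8.27 in cycling immature neutrophils and 49.0 ± 9.54 in granulocyte-monocyte progenitors. Haematopoietic stem cells had 67.7 ± 11.1 CPM, and their range overlapped that of granulocyte precursors. Monocytes had 111 ± 12.8 CPM, 2.24 to 2.70 times the level of cycling monocytes. Granulocyte precursors exceeded monocyte precursors by 2.24 to 2.88 times. Mature neutrophils are small cells with little RNA, and when cells under 2000 UMIs were left out their Csf3r mean was 581 CPM. The same limit took Csf2rb from 375 to 262 CPM in basophils and from 234 to 153 CPM in mature neutrophils.

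**Figure D2:**
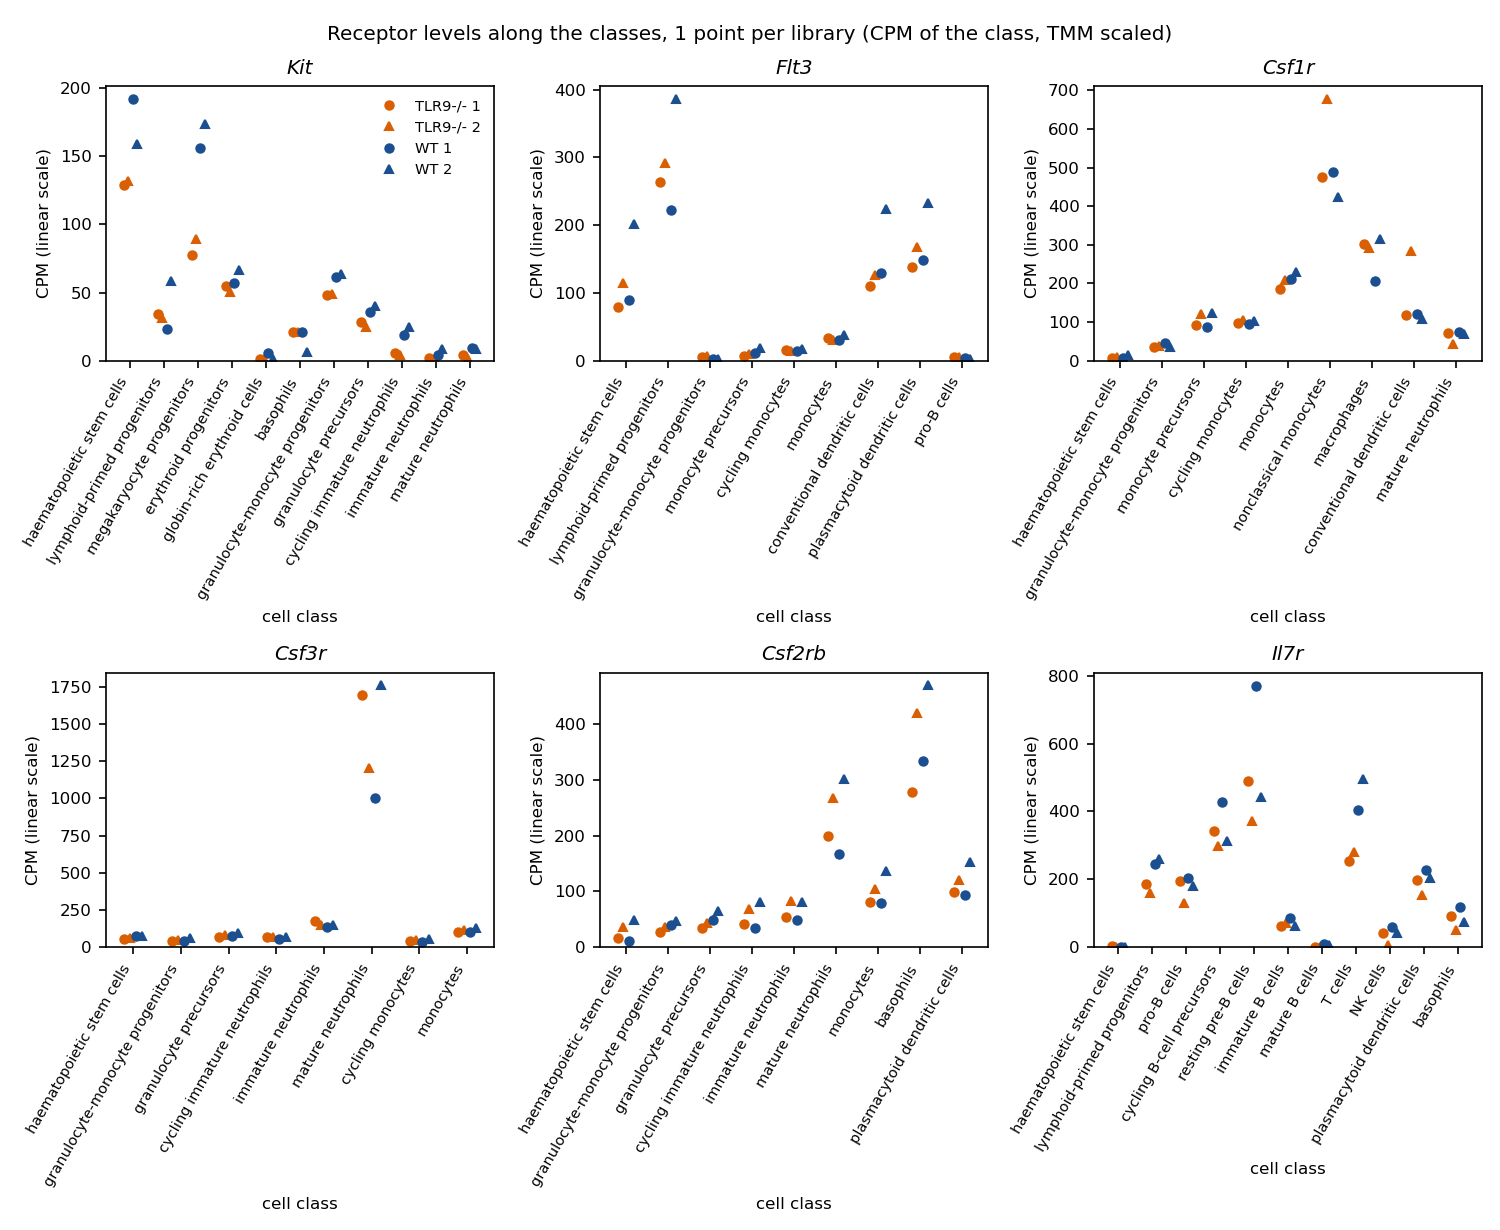
CPM (vertical axis, linear) of 6 receptor genes in classes ordered from stem cells to mature cells (horizontal axis), with 1 point per library, orange for TLR9-/- and blue for WT, circles for libraries numbered 1 and triangles for those numbered 2. Kit lies at 129 to 192 CPM in stem cells and, as a mean, at 4.18 CPM in immature neutrophils, with 5.85 CPM in mature neutrophils, and Csf3r lies at 1000 CPM or more only in mature neutrophils.

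Il7r (ENSMUSG00000003882, chr15:9505788-9530176), the IL-7 receptor alpha chain on which early B cells depend, was highest midway along the B lineage. Lymphoid-primed progenitors had 212 ± 47.4 CPM, against 6 UMIs in all stem cells together. Pro-B cells had 178 ± 32.3 CPM (SD, n = 4), cycling B-cell precursors 346 ± 58.9 and resting pre-B cells 519 ± 175. In each library both steps went up in CPM, by 1.73 to 2.26 times and then by 1.25 to 1.80 times. Of the Il7r UMIs of a library, cycling B-cell precursors held 29.2%, 22.6%, 35.9% and 38.5% in 661, 220, 1198 and 815 cells. Resting pre-B cells held less, 15%, 13.4%, 23.5% and 17.6%, in more cells (963, 436, 1450 and 990). Both are given in the order TLR9-/- 1, TLR9-/- 2, WT 1 and WT 2. Per cell, the second step thus went down in every library. Resting pre-B cells stood at 489, 371, 771 and 444 CPM in TLR9-/- 1, TLR9-/- 2, WT 1 and WT 2, and WT 1 was the highest. Immature B cells, which carry surface immunoglobulin, had 70.3 ± 11.7 CPM, lower than resting pre-B cells by 5.09 to 8.98 times. Mature B cells had 24 UMIs, or 4.73 CPM. T cells had 359 ± 112 CPM, a range that overlapped those of both precursor classes. Plasmacytoid dendritic cells reached 196 ± 31.5 CPM and basophils 84.2 ± 28.7. Granulocyte-monocyte progenitors had 17 UMIs in all, monocytes 5 and nonclassical monocytes 0. Il2rg, the chain that pairs with Il7r, was highest in T cells (319 ± 57.5 CPM) and NK cells (317 ± 61.5), and Crlf2, with which Il7r forms the receptor for TSLP, in basophils (191 ± 44.9).

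The share of cells with at least 1 UMI put the same class first for 7 of the 8 receptors, and for Csf2rb2 it put basophils (20.2%) above plasmacytoid dendritic cells (16.7%). For these shares every cell was reduced to 1000 UMIs at random, since deeper cells show more genes, and cells below that depth were left out (466 to 2713 per library). At an equal number of UMIs per cell a share follows CPM, so the order of classes is not a separate measure. Csf3r was seen in 58.6% to 67.7% of mature neutrophils in 3 libraries and in 34.5% in WT 1. The WT 1 share rests on 29 cells, as most of its 117 mature neutrophils lay below that depth. In plasmacytoid dendritic cells Csf3r was seen in 0 of 1893, which allows a share of up to 0.158%. Without the reduction the mean share in mature neutrophils was 72.2%. Csf2rb was seen in 30.1% to 47.2% of basophils (67.3% on average without the reduction). Il7r was seen in 30.1% to 48.2% of resting pre-B cells and in 0 of 1653 monocytes, which allows up to 0.181%. Flt3 was seen in 17.4% to 41.9% of lymphoid-primed progenitors and in 0 of 1106 T cells, which allows up to 0.271%. Kit was seen in 9.88% to 22.0% of stem cells, against 57.0% without the reduction, and in 0 of 2763 mature B cells, which allows up to 0.109%. At the reduced depth, Csf1r was seen in 18.2% to 22.9% of monocytes and in 0 of the 2763 mature B cells. These limits cover counting error and hold for cells with a UMI, not for cells that express the gene.

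**Figure D3:**
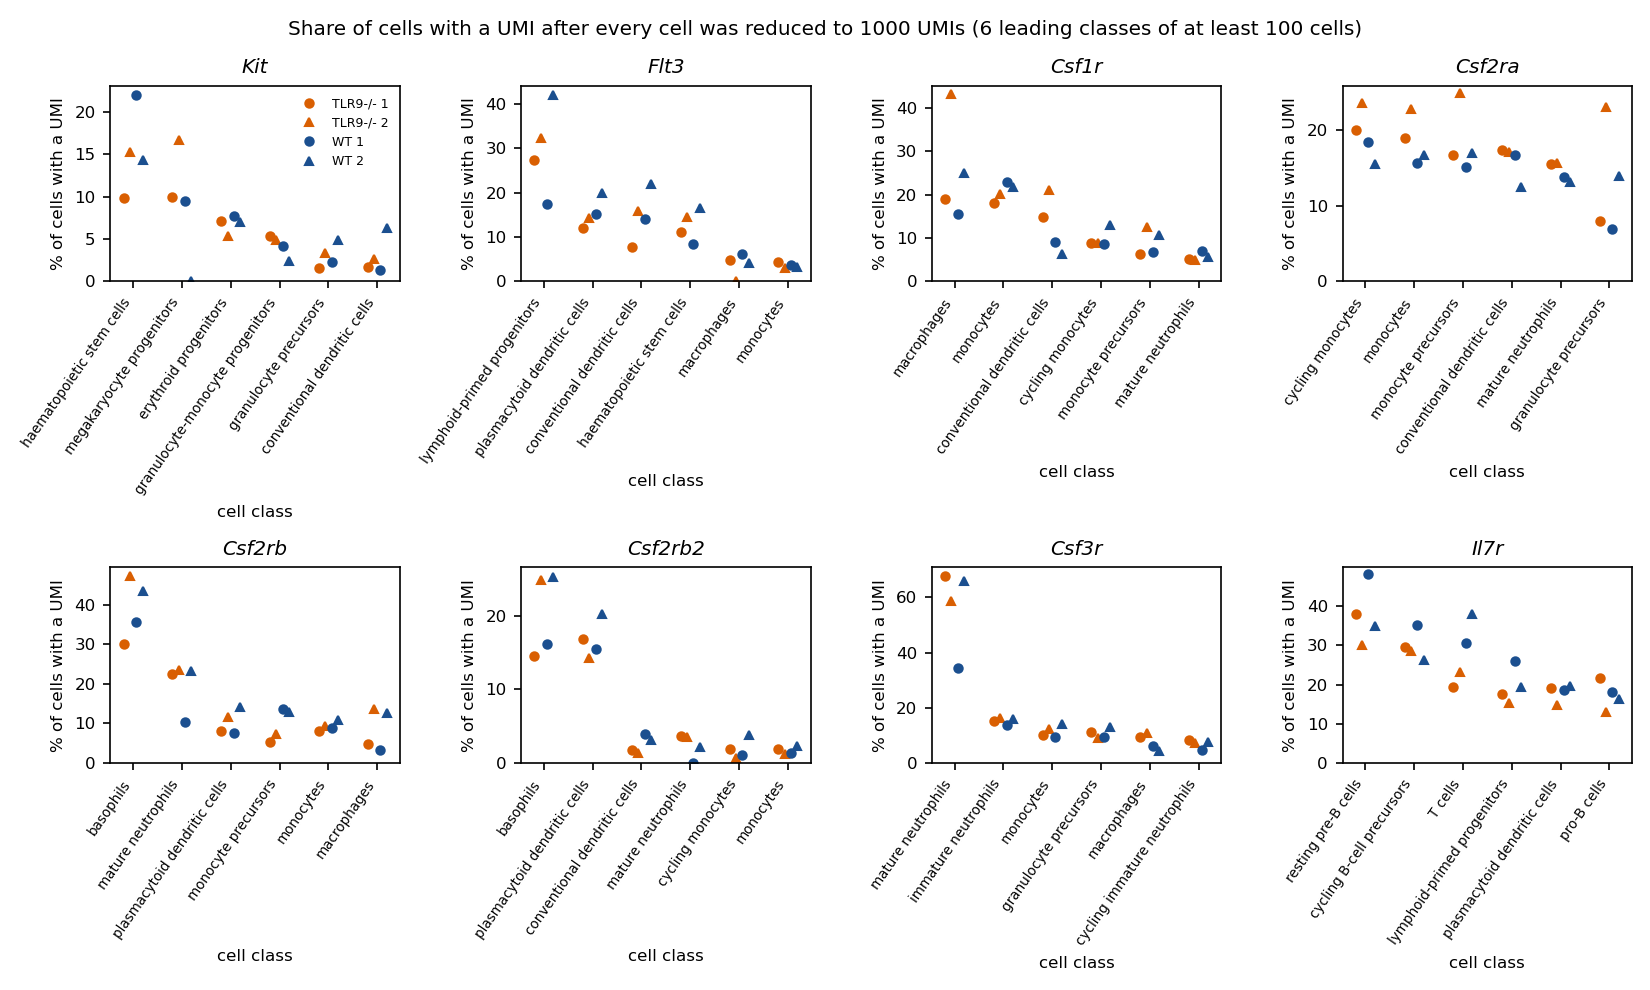
Percent of cells with at least 1 UMI (vertical axis) of each receptor gene after every cell was reduced to 1000 UMIs, in the 6 leading classes with at least 100 such cells, with 1 point per library. Mature neutrophils with Csf3r lie between 34.5% (WT 1, on 29 cells) and 67.7%, and Kit stays at or below 22.0% in every class.

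At this depth, most cells showed at most 1 of the 8 receptors. The mean share of cells with none was lowest in mature neutrophils, at 31.6%, and 46.1% in basophils, 49.6% in both monocytes and plasmacytoid dendritic cells, and 97.7% in globin-rich erythroid cells. Mature neutrophils had 2 receptors in 20.5% of cells and 3 or more in 5.35%. In basophils, 74 of 715 cells had both Csf2rb and Csf2rb2, where the product of the shares in each library sums to 54.2 cells. In mature neutrophils, 35 of 872 cells had both Csf2ra and Csf2rb, the 2 chains of the GM-CSF receptor, beside a product of 29.3. In lymphoid-primed progenitors, 9 of 198 cells had both Flt3 and Il7r, beside a product of 10.5. These are counts of sparse UMIs and are given without a test.

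Some genes followed a receptor closely over the classes. Over 26 classes, and among 6393 genes with at least 50 CPM in 1 class, the Pearson correlation of log2(CPM + 10) with Kit was highest for Rab38 (0.87), Gm15657 (0.86) and Muc13 (0.83). For Flt3 the leading genes were Bex6 (0.84), Anxa4 (0.78) and Rasa4 (0.77). Csf1r was followed by Il6ra (0.94), Cx3cr1 (0.93) and Clec4a3 (0.92), of which Cx3cr1 is the fractalkine receptor of nonclassical monocytes. Csf2ra was followed by Rnpep (0.92), Spi1 (0.91) and Rab32 (0.90), and Spi1 encodes PU.1, a myeloid transcription factor. For Csf2rb they were Fes (0.89), Nfam1 (0.88) and Alox5ap (0.86). For Csf2rb2 they were Cdh1 (0.86), Cd200r1 (0.81) and Lag3 (0.81). For Csf3r they were Gm34084 (0.90), Siglece (0.89) and Mtus1 (0.89), and for Il7r Jakmip1 (0.84), Msh5 (0.83) and Rnf157 (0.82). Among the receptors themselves, the closest were Csf2rb with Csf2rb2 (0.772) and Csf1r with Csf2ra (0.759). The classes share libraries and depth, so these values are descriptions.

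The other question of the design was whether receptor levels differed between TLR9-/- and WT cells of the same class. UMIs of a class were summed per library, and 2 libraries were compared with 2 by edgeR's quasi-likelihood test. Such an adjusted p is two-sided, with Benjamini-Hochberg adjustment over all genes tested in the class. An exact permutation test of 2 against 2 cannot go below 0.33. Of 208 pairs of receptor and class, 99 passed the filter on low counts, and 1 of these 99 had an adjusted p below 0.05. Over all genes and classes it was 464 of 167071 pairs, or 0.278%. Both TLR9-/- libraries lay above both WT libraries in 18.1% of those pairs and below them in 18.2%. A lower count in bulk sums of a class can come from fewer cells with the transcript or from fewer transcripts per cell, which the sums alone cannot tell apart.

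That pair was Kit in cycling immature neutrophils, a dividing stage past the progenitors. TLR9-/- 1 and TLR9-/- 2 had 17 and 18 UMIs in 384 and 403 cells, and WT 1 and WT 2 had 23 and 93 UMIs in 209 and 425 cells. The level was 5.96 and 4.20 CPM in TLR9-/- and 18.5 and 24.4 CPM in WT, and the groups did not overlap. On the log2 scale the change was −2.16 with a standard error of 0.31, and edgeR gave an adjusted p = 0.0115 over 8702 genes. In this class 33 of 8702 genes passed, or 0.379%. The share of cells with a Kit UMI was 4.43% and 4.22% against 10.0% and 17.6%, at medians of 7018, 8832, 5358 and 7899 UMIs per cell in the same order, and 0.265% and 0.759% against 2.55% and 2.22% once reduced to 1000 UMIs. No cell had more than 3 Kit UMIs. The call rests on the WT libraries: the adjusted p by edgeR was 0.114 without WT 1 (log2 fold change −2.28) and 0.496 without WT 2 (−1.89). With finer clusters it was 0.103 (−1.39). Marker levels, here and below, are CPM on the plain UMI total of the class, without the TMM scaling used for the receptors. In the cycling immature neutrophils, 10 granulocyte-monocyte progenitor markers, members of an earlier stage, were summed. They stood at 1544 and 1818 CPM in TLR9-/- and 2024 and 2241 CPM in WT. Of these 10, 7 were lower in both TLR9-/- libraries than in both WT libraries and 0 higher. The protease gene Elane was among the 7 (537 and 680 against 798 and 903 CPM), and Mpo, which encodes myeloperoxidase, was not (43.1 and 81.4 against 42.6 and 86.0 CPM). Other lists of earlier stages did not share this direction. The 12 granulocyte precursor markers summed to 129132 and 131153 against 126244 and 128138 CPM, with 3 lower and 3 higher. The 12 stem cell markers overlapped, at 687 and 819 against 806 and 572 CPM, with 3 lower and 0 higher. The 13 immature neutrophil markers summed to 166745 and 168730 against 160340 and 162668 CPM. Whether gaps this narrow hold under TMM scaling was not computed. The erythroblast markers, from another lineage, summed to 1945 and 1867 against 4345 and 2464 CPM. The part of these marker differences in the Kit value was not tested.

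Kit was also below WT, without passing the adjusted threshold, in most other classes. It had a negative log2 fold change in 9 of 10 classes tested, with a median of −0.50, where 51.5% of all gene and class pairs were negative. Both TLR9-/- libraries lay below both WT libraries in 8 of the 10 classes and above them in 0. In megakaryocyte progenitors the change was −1.0 (standard error 0.29, adjusted p = 0.829 by edgeR) and the groups, given above, did not overlap. In pro-B cells it was −1.72 (standard error 0.44, adjusted p = 0.121 by edgeR). In those cells the 9 lymphoid-primed progenitor markers, of an earlier stage, summed to 451 and 610 CPM in TLR9-/- and 730 and 889 CPM in WT. Of the 9, 5 were lower in both TLR9-/- libraries and 1 higher. The 12 pro-B cell markers themselves summed to 10481 and 10599 against 14276 and 11769 CPM, with 6 lower and 0 higher. The 19 pre-B cell markers, of a later stage, summed to 11327 and 12071 against 14307 and 13299 CPM, with 9 lower and 1 higher. The 10 granulocyte-monocyte progenitor markers went the other way, with 326 and 282 against 185 and 273 CPM, 4 higher and 0 lower. The part of these markers in the Kit value was not tested. In granulocyte-monocyte progenitors, with 48.5 and 48.9 against 61.4 and 63.4 CPM, it was −0.36 (adjusted p = 0.562 by edgeR).

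**Figure D4:**
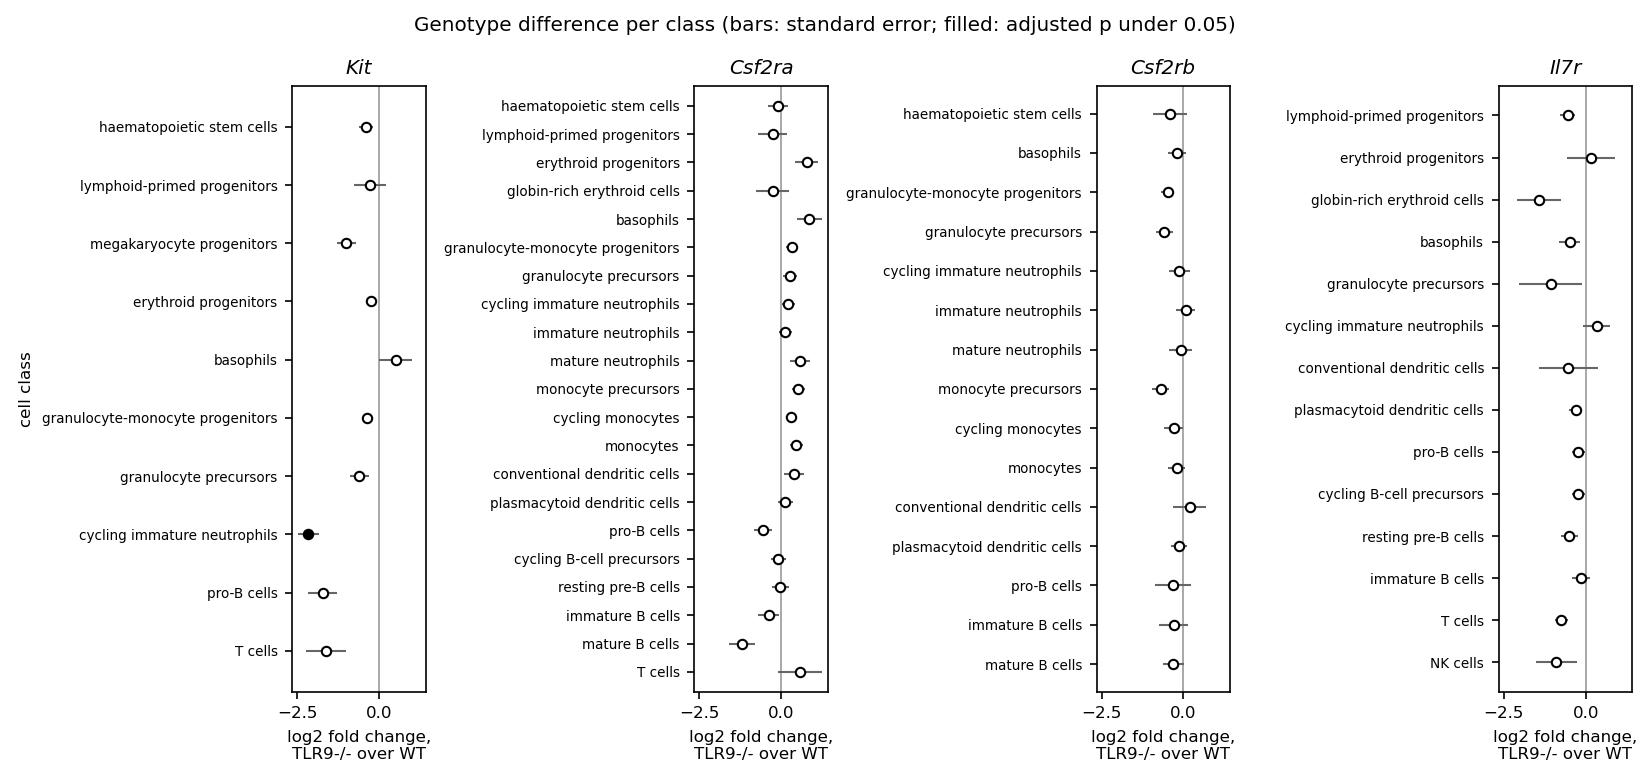
Log2 fold change of TLR9-/- over WT (horizontal axis) of Kit, Csf2ra, Csf2rb and Il7r in each class in which the gene was tested (vertical axis), with bars of 1 standard error and filled points for an adjusted p under 0.05. The only filled point is Kit in cycling immature neutrophils, at −2.16, and Csf2ra lies above 0 in 13 of 21 classes.

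The GM-CSF binding subunit Csf2ra leaned the other way in myeloid cells. It was positive in 13 of 21 classes, with a median of 0.21. Both TLR9-/- libraries lay above both WT libraries in 10 of the 21 classes and below them in 3. In monocyte precursors it stood at 222 and 282 CPM in TLR9-/- and 169 and 182 CPM in WT, a change of 0.52 on the log2 scale (standard error 0.19, by edgeR adjusted p = 0.598). In monocytes it stood at 231 and 256 against 166 and 190 CPM (0.45, adjusted p = 0.839 by edgeR). In mature B cells the change was −1.20 (adjusted p = 0.727 by edgeR). The shared chain Csf2rb was negative in 13 of 15 classes, with a median of −0.30. Both TLR9-/- libraries lay below both WT libraries in 2 of the 15 and above them in 0, beside 18.2% and 18.1% of all pairs. In monocyte precursors Csf2rb stood at 48.4 and 70.4 against 69.0 and 127 CPM, where the groups overlapped. In the single fit over all classes, which tests whether the genotype difference itself differs between classes, 0 of the 8 receptors passed and 110 of 12648 genes did (0.87%). By that edgeR fit the unadjusted p was 0.000623 for Csf2ra (adjusted p = 0.0606), 0.00229 for Kit (adjusted p = 0.155) and 0.013 for Csf3r (adjusted p = 0.464), and those 3 of 8 lay below 0.05, beside 5.93% of all genes. With 1 library left out, Csf2ra passed without TLR9-/- 1 (adjusted p = 0.0246 by edgeR), Kit without WT 1 (0.0208) and Csf1r without WT 2 (0.00636). The opposite directions of Csf2ra in monocytes and in mature B cells were thus not established as a difference.

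Il7r was negative in 12 of 14 classes, with a median of −0.49. Both TLR9-/- libraries lay below both WT libraries in 4 of the 14 and above them in 0, beside 18.2% and 18.1% of all pairs. T cells stood at 254 and 282 CPM in TLR9-/- and 403 and 496 CPM in WT. The groups did not overlap, and the change was −0.74 on the log2 scale (standard error 0.21, by edgeR adjusted p = 0.56). Markers of B-lineage cells, among which Il7r is high, were also lower in the TLR9-/- libraries of these T cells. The 12 pro-B cell markers summed to 385 and 390 CPM in TLR9-/- and 1278 and 1012 CPM in WT, with 7 of the 12 lower in both TLR9-/- libraries and 0 higher. The 19 pre-B cell markers summed to 1481 and 1659 against 2530 and 3159 CPM. The erythroblast markers summed to 3087 and 1878 against 4663 and 5491 CPM, and the 15 T cell markers to 6719 and 6438 against 5781 and 5444 CPM. The part of these markers in the Il7r value was not tested. Lymphoid-primed progenitors stood at 185 and 160 against 245 and 259 CPM, with a change of −0.55 (standard error 0.23, adjusted p = 0.881 by edgeR). Flt3 was negative in 8 of 10 classes. In granulocyte-monocyte progenitors it was low in every library but higher in TLR9-/-, with a change of 1.31 (standard error 0.38, adjusted p = 0.38 by edgeR). Csf1r had a median change of 0.03 over 11 classes and Csf3r of −0.11 over 9. For Csf1r the tested values ran from −0.29 to 0.78 and for Csf3r from −0.41 to 0.14, and neither had an unadjusted p below 0.05 in any class. Csf2rb2 was negative in 8 of 9 classes, with a median of −0.45. Both TLR9-/- libraries lay below both WT libraries in 6 of the 9 and above them in 1, the mature neutrophils. Over all 8 receptors, 67 of 99 changes were negative. At an unadjusted p below 0.05 by edgeR there were 16 of 99, beside 6.36% of all pairs. Of these 4 were positive and 12 negative, and over all genes 3.35% of pairs were negative at that threshold. The classes of 1 library share a mouse, so these counts are not independent.

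Some receptors followed the library number more than the genotype. Csf2rb was higher in both libraries numbered 2 than in both numbered 1 in 10 of 15 classes and the reverse in 0, where over all genes it was 19.7% and 19.2% of the pairs. In basophils the libraries numbered 2 had 420 and 469 CPM and those numbered 1 had 278 and 334 CPM. Csf3r was higher in both libraries numbered 2 in 5 of 9 classes. Il7r was lower in them in 6 of 14 classes, and for Kit neither order occurred in any of 10 classes. The libraries numbered 2 were also the deeper ones of each genotype, and both TLR9-/- libraries were deeper than both WT libraries. The part of depth in the genotype differences was not tested. Whether the number stands for the experiment is not stated, and its own effect on these levels was not tested. Genotype fits with the number as a block are given in the part on processing.

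The rest of the pathway was read from lists of partner receptors, ligands, downstream kinases, STATs and adaptors, and negative regulators. Among other cytokine receptors, 0 of 266 gene and class pairs passed by edgeR (24 at an unadjusted p below 0.05), where over all genes 0.278% of pairs passed and 6.36% were below 0.05 unadjusted. None of 14 ligand pairs passed by edgeR (2 unadjusted), and 0 of 387 pairs of kinases, STATs and adaptors (8 unadjusted). Of 194 pairs of negative regulators, 2 passed (16 unadjusted), both for Socs2, a STAT5-induced suppressor of cytokine signalling, and both higher in TLR9-/-. In the cluster of cycling B-cell precursors Socs2 stood at 70.4 and 79.5 CPM in TLR9-/- and 28.2 and 24.7 CPM in WT. The change was 1.5 on the log2 scale (standard error 0.20, by edgeR adjusted p = 0.00183). In pro-B cells it stood at 129 and 154 against 71.1 and 37.9 CPM, a change of 1.38 (standard error 0.25, adjusted p = 0.0159 by edgeR). It was higher in 6 of 6 classes tested. In the same B-cell precursors Il7r, which signals through STAT5, did not pass.

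For the ligands, marrow cells of these classes held few transcripts. Kitl, the Kit ligand, was highest in mesenchymal cells, the stromal class, at 186 ± 29.2 CPM (SD, n = 4) on 64 UMIs. Csf1, which encodes M-CSF, had 205 ± 75.2 CPM in basophils and 92.7 ± 55.5 CPM in mesenchymal cells. Among the classes with enough of its UMIs to be ranked, Flt3l was highest in T cells, at 30.5 ± 5.63 CPM. Over the 26 classes Csf3 had 3 UMIs and Il7 26. Epor, the erythropoietin receptor, had 133 ± 20.1 CPM in globin-rich erythroid cells and 112 ± 7.88 CPM in erythroid progenitors. Kit, by contrast, had 57.2 CPM in erythroid progenitors and 2.44 CPM in globin-rich cells.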

How the data were processed

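Each library came from bone marrow mononuclear cells of 1 mouse, with 2 libraries per genotype. The authors deposited raw UMI counts per gene and cell barcode, made with Cell Ranger (3.0.1 per the file headers), and the submitters' processing notes name STAR, mm10 and Seurat 2.3.4. Cells with fewer than 200 or more than 10000 genes, or over 10% mitochondrial UMIs, were left out; the methods print the latter limit as 0.10%, read here as a fraction. Depth was 31210188 to 63958243 UMIs per library, and precision is limited by the 2 libraries per genotype. Doublets were marked by Scrublet's procedure (309, 420, 401 and 662 cells in TLR9-/- 1, TLR9-/- 2, WT 1 and WT 2) and kept. In WT 2 the automatic threshold marked 0.0112% of cells, so a rate of 0.8% per 1000 cells was taken there.

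Cells were clustered with scanpy 1.11.5 (2000 variable genes, 30 components, 15 neighbours, Leiden resolution 1, without the 8 receptors and 66 list genes). Mixed clusters were clustered once more by themselves. A cluster took the class whose markers had the highest mean excess over the other clusters. It stayed unnamed with under 60 cells, under 3 detected markers, at least 40% doublets, another lineage at 0.65 of that score or more, or leading genes of another lineage. Class UMIs were summed per library, scaled by TMM and tested with edgeR 4.0.16 under R 4.3.3 after filterByExpr, without covariates. CPM used all UMIs of the class, and marker levels were left without TMM scaling. One further fit over all classes, with library as a block, tested the genotype by class terms together. The scripts were tested on simulated data. DESeq2 1.42.0, a block on the library number, other scaling, no filter, each library left out, doublets left out, a 5% mitochondrial limit and resolution 2 were alternatives. The study's test over cells was not used, because cells of 1 mouse are not replicates. The members and lists were chosen with earlier results of these data known. All 8 receptors are named, each with the 3 genes most like it, the list genes that passed, and 11 partners and ligands, 1 of which is not reported here. Promoters are from RefSeq on GRCm38.p6; 6 of the 8 receptors were matched. No promoter of Csf1r or Csf2rb and no protein sequence was used here.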

Additional observations from a re-analysis of the deposited data

How the results depend on the processing

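Of 99 pairs of receptor and class, 1 was called. A replicate block on the library number gave 4 calls (Kit in cycling immature neutrophils and in pro-B cells, Il7r in T cells and in globin-rich erythroid cells), no filter on low counts 5, leaving out 1 library 1 to 2 (with Csf1r in erythroid progenitors, Flt3 in stem cells or Il7r in globin-rich erythroid cells among them), and resolution 2 gave 0. DESeq2, RLE size factors, doublets left out and the 5% mitochondrial limit each gave 1. Over all genes the 464 calls became 2144 with the block, 1971 without the filter and 984 to 1210 with 1 library left out. In the fit over all classes the 0 receptors became 5 of 8 without the filter, where 552 of 20099 genes passed. Without the library block 0 receptors passed, and 27 of 12648 genes did. Results of that fit with 1 library left out are given above. The causes were not tested. Whether the library number stands for the experiment is not stated. Deviations of same-numbered libraries correlated at −0.11 to 0.53 (median 0.22) over the 26 classes, above 0.1 in 23 and below −0.1 in 1. As the meaning of the number is not stated, the block is given here only, and it changed no other call. Log2 fold changes were compared for at most 16 of the 99 pairs in a setting, 167 values in all. Of these 167, 161 kept direction and side of the threshold, 3 lost their call and 3 gained one, and none changed sign. They do not speak for the other pairs. Of 192 recomputed levels, 187 moved by less than 1 SD, and the other 5 moved with cells of at least 2000 UMIs only. Among the 192 are 24 levels for each library left out. Leaving out 1 of 4 values cannot move their mean by 1 SD, so those levels carry no information on stability. Of the recomputed shares of cells, 39 moved and 9 stayed the same, with no reduction or with 2000 UMIs per cell. At resolution 2 the stem cells, lymphoid-primed progenitors, monocyte precursors, conventional dendritic cells, macrophages and nonclassical monocytes had no named cluster with at least 10 cells in every library, and have no value. Depth limits the sparse pairs: 109 of 208 pairs had too few UMIs to be tested.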

Other observations

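Some clusters without a class name held receptors at levels like those of named classes. A cluster of 329 cells led by Cd34, Bex6, Igfbp4 and Egfl7 had Flt3 at 169 ± 52 CPM (SD, n = 4 libraries) together with Csf1r at 88.9 ± 14.6 CPM and Kit at 33.8 ± 10.3 CPM, and Il7r at 21.8 ± 15.1 CPM. A cluster of 270 cells led by AC140186.1, Cd7, Clec9a and Cd209d had Flt3 at 220 ± 69.4 CPM and Csf2rb2 at 101 ± 28.9 CPM, with Kit at 5.78 ± 5.32 CPM. A cluster of 244 cells led by Cd209a, Cst3, Ass1 and Aif1 had Csf2ra at 175 ± 21.7 CPM, Flt3 at 102 ± 20.1 CPM and Csf1r at 85.5 ± 14.3 CPM. A cluster of 110 cells led by Apoe, Clec4a3, Hpgd and Gm9733 had Csf1r at 340 ± 62.2 CPM and 0 UMIs of Kit and Il7r. A cluster of 105 cells, in which macrophage genes (C1qc, Vcam1) and Klk1 led together, had Flt3 at 200 ± 116 CPM, Il7r at 206 ± 45.7 CPM and Csf2rb2 at 148 ± 31.4 CPM.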
